A study of Homo sapiens with 2 samples.

Results

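The genes described here are 10 cytokine and chemokine genes that epithelial cells can make: IL1A, IL1B, IL1RN, IL6, IL18, CXCL1, CXCL2, CXCL8, LIF and CCL2. The rule is a list of symbols in which no measured value enters, although the list was drawn up with earlier results of these data known, and each symbol matched 1 of the 58735 Ensembl gene identifiers in both count tables. The cells were MCF10a-Snail-ER, a line of non-tumorigenic human mammary epithelial cells that stably carries the repressor Snail fused to the estrogen receptor. Per the labels' treatment protocol, they had 100 nM tamoxifen for 1 day, which starts an epithelial-to-mesenchymal transition in them, in medium with horse serum, EGF, hydrocortisone, cholera toxin and insulin. Matched polyadenylated RNA gave 1 Nanopore direct RNA library, in which RNA strands are read without amplification, and 1 Illumina TruSeq stranded mRNA library, in which amplified cDNA fragments are read. Both libraries share the cells, the fusion and the treatment. No untreated library and no parental line is analysed here, so no value below is a response to tamoxifen or to Snail. There was 1 library per platform, so no value has a spread between replicates, and all intervals and tests cover counting error in these 2 libraries only.

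Epithelial cytokines are secreted signals that call in and activate immune cells and also act on the epithelium itself. The IL-1 family members IL-1α, IL-1β and IL-18 are made as cytosolic precursors that are cut and released, and they signal through paired receptors to the transcription factor NF-κB. NF-κB in turn switches on the chemokine genes CXCL1, CXCL2 and CXCL8, which attract neutrophils, and CCL2, which attracts monocytes. IL-6 and LIF share the receptor subunit gp130 and signal to STAT3. Many of these mRNAs are short-lived, since AU-rich stretches in their 3′ untranslated regions (UTRs) are bound by proteins that promote their decay.

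The libraries held 403235 counts by Nanopore and 191741714 by Illumina, a 476-fold difference in depth. One Nanopore count stood for 2.48 counts per 1000000 library counts (CPM), and 3 counts, taken as the least a depth can show, for 7.44 CPM by Nanopore and 0.0156 CPM by Illumina. All 7 basal epithelial markers looked up had counts in both libraries, led by KRT5 at 1447 CPM by Illumina. So had the 5 luminal or general epithelial markers, from KRT19 at 0.459 CPM to KRT18 at 321.8 CPM by Illumina. Of these, KRT19 had 1 Nanopore count, and EPCAM (4.02 CPM by Illumina) and CDH1 (24.2 CPM) had 3 each. Of 10 leukocyte markers, 4 (PTPRC, CD3E, CD79A and TYROBP) had at most 3 Illumina counts, and the summed level of the list was 94.2 CPM by Nanopore and 61.4 CPM by Illumina, carried by CD68, CSF1R and CD14. The 6 fibroblast markers summed to 27.3 and 33.8 CPM, and the 4 endothelial markers to 2.48 and 6.61 CPM. The part of other cell types in the cytokine values was not tested, and in bulk RNA few cells with much of an mRNA and many cells with little cannot be told apart.

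CXCL1 and CXCL2 are close copies of each other in the chemokine cluster of chromosome 4, with CXCL3 as a further copy. Because the split of reads among the copies bears on the results below, bases 145 to 324 of their coding sequences are shown, read from the GENCODE release 44 transcripts ENST00000395761.4, ENST00000508487.3 and ENST00000296026.4. Capitals mark the positions at which the 3 genes are not all alike, 21 in this stretch.
CXCL1: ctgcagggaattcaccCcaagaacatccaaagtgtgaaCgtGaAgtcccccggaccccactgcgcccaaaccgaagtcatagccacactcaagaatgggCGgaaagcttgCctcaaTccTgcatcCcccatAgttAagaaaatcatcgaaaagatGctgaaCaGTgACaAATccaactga
CXCL2: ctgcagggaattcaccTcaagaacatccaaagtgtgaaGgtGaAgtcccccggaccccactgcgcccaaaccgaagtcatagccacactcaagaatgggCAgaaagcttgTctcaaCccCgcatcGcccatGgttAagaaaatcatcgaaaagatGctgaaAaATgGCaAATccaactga
CXCL3: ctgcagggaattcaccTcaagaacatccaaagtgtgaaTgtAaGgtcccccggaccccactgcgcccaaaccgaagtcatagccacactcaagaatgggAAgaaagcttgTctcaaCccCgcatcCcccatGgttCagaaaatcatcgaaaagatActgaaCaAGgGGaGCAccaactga
Over all 324 coding bases, CXCL1 and CXCL2 were 93.5% identical, CXCL2 and CXCL3 94.4%, and CXCL1 and CXCL3 90.7%. The longest stretch without a difference between whole transcripts was 77 bases for CXCL1 and CXCL2 and 97 bases for CXCL2 and CXCL3.

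The chemokine promoters are shown next, with that of IL6. Those of CXCL1, CXCL2 and CXCL3 carry the same NF-κB-type element at nearly the same place, and those of CXCL8 and IL6 carry a similar one. The sequences are RefSeq's on GRCh38.p14, from windows of 250 bases before to 50 after each start site, with the element in capitals. CXCL1 is at chr4:73869289-73869348 (plus strand), CXCL2 at chr4:74099239-74099298 (minus), CXCL3 at chr4:74038734-74038793 (minus), CXCL8 at chr4:73740453-73740511 (plus) and IL6 at chr7:22727102-22727161 (plus).
CXCL1: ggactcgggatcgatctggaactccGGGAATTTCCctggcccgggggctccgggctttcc
CXCL2: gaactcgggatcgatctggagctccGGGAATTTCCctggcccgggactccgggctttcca
CXCL3: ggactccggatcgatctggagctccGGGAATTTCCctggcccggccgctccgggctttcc
CXCL8: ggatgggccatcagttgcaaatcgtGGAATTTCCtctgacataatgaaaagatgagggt
IL6: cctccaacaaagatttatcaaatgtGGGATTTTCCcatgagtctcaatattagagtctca
The element began 79 bases before the start site in CXCL1 and CXCL3, 78 in CXCL2, 91 in CXCL8 and 73 in IL6. The loose NF-κB pattern, GGG and CC with any 5 bases between them, searched on both strands with overlaps counted, was in a window of 5 of the 7 members that matched the table (IL1RN, IL6, CXCL1, CXCL2 and CXCL8), but also in 73.1% of 15306 protein-coding genes. The genes searched do not cover every chromosome. In CXCL8 the match was GGGATGGGCC and not the element shown, which does not have the pattern. The fixed letters GGAATTTCC, a choice made after the promoters were seen, were in 3 of the 7 (CXCL1, CXCL2 and CXCL8) against 0.542% of those genes. The members not in the table were IL18, LIF and CCL2.

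A further feature that the choice of genes did not use lies in the 3′ UTRs. The letters ATTTA are the core of AU-rich elements, and the longer TTATTTATT is the form bound by the decay factor tristetraprolin (gene ZFP36). The 30-base stretches densest in ATTTA are shown for 4 of the 5 members with TTATTTATT, from the canonical GENCODE transcripts, with each ATTTA in capitals. LIF, the member of these with the fewest ATTTA per kilobase (2.19), is not shown. The stretch of CXCL8 holds no TTATTTATT, which lies elsewhere in its 3′ UTR.
CXCL2: ttctATTTATTTATTTATTTATTTAtttgt
CXCL1: agtcttctATTTATTTATTTAttcattagt
IL1B: gcttccctATTTATTTATTTAtttgtttgt
CXCL8: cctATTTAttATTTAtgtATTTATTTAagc
At least 1 ATTTA was in the 3′ UTR of 8 of the 10 members, against 67.6% of 19390 protein-coding genes, and none was in IL1RN or IL18. At least 1 TTATTTATT was in 5 of the 10 (IL1B, CXCL1, CXCL2, CXCL8 and LIF), against 8.46% of genes. CXCL2 had the most among the members, with 10 ATTTA and 5 TTATTTATT, overlapping matches counted, in a 3′ UTR of 716 bases; 5 or more of the latter were in 0.206% of genes. The median over the 10 members was 5.78 ATTTA per kilobase of 3′ UTR, and over all genes 1.51.

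All 10 genes had Illumina counts, and 6 had Nanopore counts. Together they held 33037 Illumina counts, 0.0172% of the library, and 141 Nanopore counts, 0.0350%. The genes without a Nanopore count were IL1B, IL1RN, IL6 and LIF, which were also the 4 with the fewest Illumina counts. By Illumina counts per kilobase of canonical transcript, the order was IL18 (11119), CXCL1 (5049), CXCL2 (3239), CCL2 (2211), CXCL8 (2133), IL1A (1813), IL1B (643), IL1RN (292), LIF (183) and IL6 (115). Division by the union of all exons kept 6 of the 10 ranks, moved CCL2 below IL1A and CXCL8, and put LIF above IL1RN. Nanopore counts were not divided by length, since the assay reads RNA strands and not fragments. Whether a strand could count for more than 1 gene is not given in the sources used here. By Nanopore counts the order was CXCL2, IL18, CXCL1, CXCL8, IL1A and CCL2. The 95% Wilson intervals of each pair of neighbours in the Nanopore order overlapped. Overlap is no test of a difference, and differences between neighbours were not tested.

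**Figure D1:**
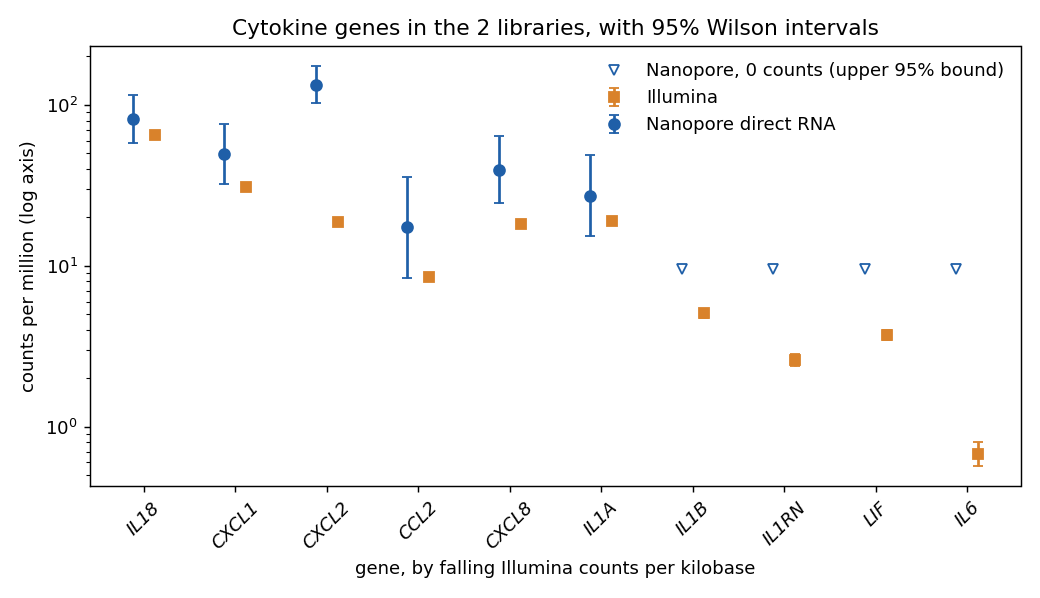
Level of each of the 10 genes in CPM (log axis) in the Nanopore (circles) and Illumina (squares) library, with 95% Wilson intervals for counting error; open triangles are the upper bound of 9.53 CPM for 0 Nanopore counts. CXCL2 is at 134 CPM by Nanopore and 18.8 CPM by Illumina, and the Illumina levels of the 4 genes without a Nanopore count lie below the triangles.

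Each gene's pair of counts was compared, given the library totals, by an exact binomial test (two-sided). All 12414 genes whose mean over the libraries reached 5 CPM entered, p-values were adjusted over all of them by Benjamini and Hochberg's method, and the threshold was 0.05. The test compares these 2 libraries and takes their counts as independent. The Nanopore column has a suffix in its name that no label explains, and whether the long reads had been corrected with the short ones, which would make the counts dependent, is not given in the sources used here. Of the 10 members 6 passed this filter, and these are the same 6 that had a Nanopore count. CCL2 passed only with its Nanopore counts, while the other 5 would have passed on their Illumina level alone. Of the 6, 2 (CXCL2 and CXCL8) were called higher by Nanopore and 0 higher by Illumina, against 20.2% and 27.2% of all tested genes. With a ratio of at least 4-fold on the log2(CPM + 1) scale, which understates differences of rare genes, 1 member (CXCL2) was called higher by Nanopore, against 12.9% of tested genes, and 0 higher by Illumina, against 7.31%. The log2 Nanopore/Illumina ratio was above 0 for the 6 tested members and below 0 for the other 4, whose Nanopore value was 0. Its median over the 6 was 0.80, and over all tested genes −0.42, which is a description of the members that passed. The tested members have short transcripts, with a median canonical length of 1144 bases against 2882, and in the 3160 tested genes of 700 to 2100 bases, a range set after the values were seen, the median ratio was 0.03. In that range 27.6% of genes were called higher by Nanopore and 17.2% higher by Illumina, and 15.8% and 3.32% with 4-fold. Of the 6 tested members 5 (all but IL18) overlap no other gene, and of the 3049 tested genes without overlap 8.56% were called higher by Nanopore and 32.4% higher by Illumina, and 3.02% and 9.22% with 4-fold. The part of transcript length in the members' ratios was not tested beyond the division by length given below.

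**Figure D2:**
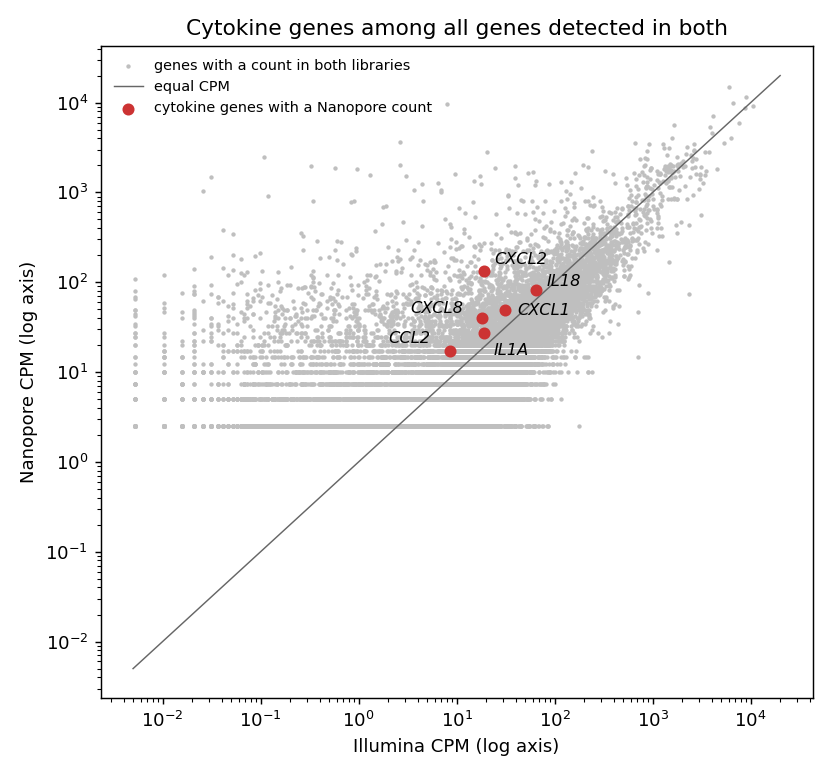
Nanopore against Illumina CPM (log axes) of genes with a count in both libraries (grey) and of the 6 cytokine genes with a Nanopore count (red), with the line of equal CPM. All 6 lie above the line, and CXCL2 lies farthest from it.

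The IL-1 family was led by IL18, an interferon-γ-inducing cytokine that epithelial cells store as a precursor. IL18 (ENSG00000150782, chromosome 11, 112143253 to 112164096, minus strand) had 33 Nanopore and 12398 Illumina counts, which is 81.8 CPM (95% Wilson interval 58.3 to 114.9) and 64.7 CPM (63.5 to 65.8). The Nanopore/Illumina fold was 1.27 (exact 95% interval 0.871 to 1.78; exact binomial adjusted p = 0.320). The interval includes 1, and division of the Illumina counts by canonical length turned the log2 ratio from 0.34 to −0.13.

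On the opposite strand IL18 is overlapped by ENSG00000255292, a protein-coding gene (112086903 to 112193805) that also spans SDHD, a subunit of the mitochondrial enzyme succinate dehydrogenase. ENSG00000255292 had 90 Nanopore counts, and IL18 and SDHD had 33 and 57, which sum to 90. By Illumina it had 7034 counts, against a sum of 34619. Of the genes that ENSG00000255292 overlaps, IL18 and SDHD alone had Nanopore counts. Its log2 ratio of 2.57 passed the test (exact binomial adjusted p = 4.57e-38). The test takes the 90 counts as reads of ENSG00000255292 itself, and whether they are was not tested. How reads on several genes or strands were counted is not given in the sources used here, and the part of such counting in the IL18 values was not tested.

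IL1A encodes IL-1α, which keratinocytes and other epithelial cells release when damaged. IL1A (ENSG00000115008, chromosome 2, 112773925 to 112784493, minus strand) had 11 Nanopore and 3656 Illumina counts, or 27.3 CPM (15.2 to 48.9) and 19.1 CPM (18.5 to 19.7). The fold was 1.43 (0.714 to 2.56; exact binomial adjusted p = 0.429), and with 11 Nanopore counts the interval leaves room for values on both sides of 1.

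IL1B, the secreted IL-1β that inflammasomes process, and IL1RN, the receptor antagonist that blocks both IL-1 forms, were seen by Illumina alone. IL1B (ENSG00000125538, chromosome 2, 112829751 to 112836816) had 0 Nanopore and 969 Illumina counts, 5.05 CPM (4.75 to 5.38). IL1RN (ENSG00000136689, chromosome 2, 113099315 to 113134016) had 0 and 497, 2.59 CPM (2.37 to 2.83). At these Illumina shares 2.04 and 1.05 Nanopore counts would be expected, and 0 counts would occur with a binomial probability of 13.03% and 35.2%. Both Illumina levels lie under the 7.44 CPM that 3 Nanopore counts stand for, so each absence of reads, taken alone, was within what the depth allows. By Illumina counts per kilobase, IL1A was at 1813, IL1B at 643 and the antagonist IL1RN at 292.

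The rest of the IL-1 cluster on chromosome 2 had almost no counts. Of its 9 genes 4 had any Illumina count: IL1A, IL1B and IL1RN, and IL37 with 2. IL36G, an epithelial cytokine of barrier tissues, and the other 4 genes (IL36A, IL36B, IL36RN and IL1F10) had 0 counts in both libraries, for which the 95% Wilson upper bound is 0.0200 CPM by Illumina.

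Among the neutrophil-attracting CXC chemokines, CXCL2 had the highest ratio. CXCL2 (ENSG00000081041, chromosome 4, 74097040 to 74099196, minus strand) had 54 Nanopore and 3611 Illumina counts, or 134 CPM (103 to 175) and 18.8 CPM (18.2 to 19.5). The fold was 7.11 (5.33 to 9.30; exact binomial adjusted p = 4.28e-26), a log2 ratio of 2.77. At the Illumina share 7.59 Nanopore counts would be expected. The ratio ranked 1206 among all 12414 tested genes, and 57 among the 3049 of them that, like CXCL2, overlap no other gene. After division of the Illumina counts by canonical length the ranks were 1566 of 11690 and 97 of 2866.

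CXCL8 encodes interleukin-8. CXCL8 (ENSG00000169429, chromosome 4, 73740519 to 73743716, plus strand) had 16 Nanopore and 3502 Illumina counts, or 39.7 CPM (24.4 to 64.5) and 18.3 CPM (17.7 to 18.9). The fold was 2.17 (1.24 to 3.53; exact binomial adjusted p = 0.0192). CXCL8 was thus higher by Nanopore but under 4-fold, and the interval of its fold lies below that of CXCL2.

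CXCL1, the most abundant of these chemokines by Illumina, acts on the same receptor as CXCL2. CXCL1 (ENSG00000163739, chromosome 4, 73869393 to 73871308, plus strand) had 20 Nanopore and 5927 Illumina counts, or 49.6 CPM (32.1 to 76.6) and 30.9 CPM (30.1 to 31.7). The fold was 1.61 (0.979 to 2.48; exact binomial adjusted p = 0.111). The difference did not pass the threshold, and the log2 ratio of 0.67 became −0.30 after division by union exonic length.

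The order of CXCL1 and CXCL2 was opposite in the 2 libraries. CXCL2 took 70.1% of the 77 Nanopore counts of CXCL1, CXCL2 and CXCL3 (95% Wilson interval 59.2 to 79.2%) and 35.0% of the 10314 Illumina counts (34.1 to 35.9%). CXCL1 took 26.0% (17.5 to 36.7%) and 57.5% (56.5 to 58.4%). CXCL3 (ENSG00000163734), the third copy, had 3 and 776 counts, and its share was 3.90% (1.33 to 10.8%) and 7.52% (7.03 to 8.05%). Summed over the 3 genes, a step added after the values were seen, the counts were 191 CPM by Nanopore and 53.8 CPM by Illumina, a fold of 3.55 (2.80 to 4.44).

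**Figure D3:**
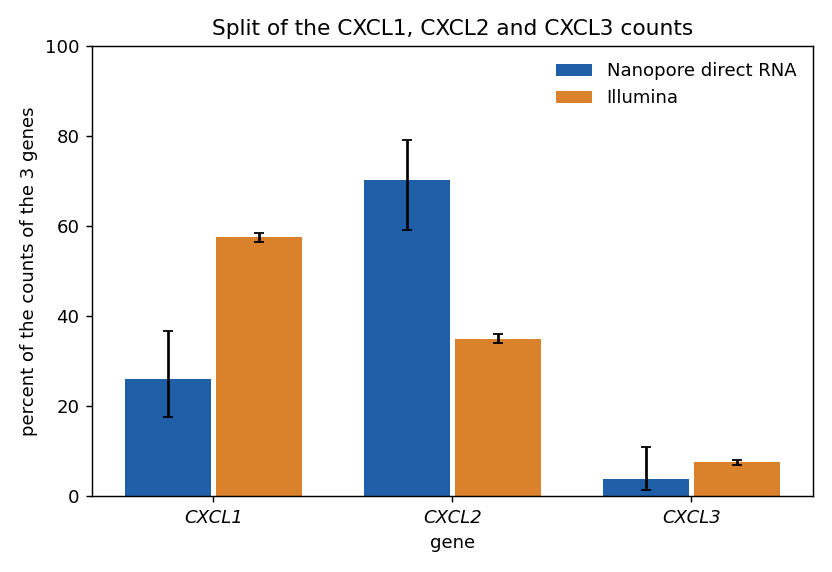
Share of the summed counts of CXCL1, CXCL2 and CXCL3 held by each gene, in percent, in the Nanopore (77 counts) and Illumina (10314 counts) library, with 95% Wilson intervals for counting error. CXCL2 holds 70.1% by Nanopore and 35.0% by Illumina, and CXCL1 holds 26.0% and 57.5%.

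Shared sequence was measured beside this result. Of the 50-base words of the CXCL2 transcript 10.1% also occur in another gene, 60 of 1066 in CXCL1 and 54 in CXCL3. For CXCL1 the share was 5.33%, for CXCL3 5.26% and for CXCL8 0%. How reads that fit several genes were counted is not given in the sources used here, and the part of shared sequence in the split was not tested. The transcripts of CXCL1, CXCL2, CXCL3 and CXCL8 had no alignment to an alternate contig of hg38.

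In the rest of the CXC cluster on chromosome 4, CXCL6 had 0 counts in both libraries. PF4, the platelet chemokine, had 40 Illumina counts, and PF4V1, PPBP and CXCL5 had 2, 3 and 3, with 0 by Nanopore. Of the 9 cluster genes, CXCL1, CXCL2, CXCL3 and CXCL8 alone had a Nanopore count.

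CCL2, the monocyte chemokine MCP-1, had the fewest Nanopore counts of the members with any. CCL2 (ENSG00000108691, chromosome 17, 34255274 to 34257208, plus strand) had 7 Nanopore and 1638 Illumina counts, or 17.4 CPM (8.41 to 35.8) and 8.54 CPM (8.14 to 8.97). The fold was 2.03 (0.816 to 4.196; exact binomial adjusted p = 0.203). The difference did not pass the threshold, and its log2 ratio of 0.94 became −0.04 after division by canonical length.

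The gp130 cytokines IL6 and LIF were the lowest by Illumina counts per kilobase of canonical transcript. Per kilobase of union exonic length IL1RN (133) lay below LIF (183). LIF (ENSG00000128342, chromosome 22, 30240453 to 30246759) had 0 Nanopore and 709 Illumina counts, 3.70 CPM (3.44 to 3.98). IL6 (ENSG00000136244, chromosome 7, 22725884 to 22732002) had 0 and 130, 0.678 CPM (0.571 to 0.805). The expected Nanopore counts were 1.49 and 0.273, with a probability of 22.5% and 76.1% of no count, so neither absence was outside the depth. Both antisense genes of LIF, LIF-AS1 and LIF-AS2, had at most 1 count in either library. IL6 overlaps IL6-AS1, with 0 Nanopore and 9 Illumina counts, and STEAP1B, a gene on the opposite strand with 13 and 23 counts.

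Detection followed abundance. Both members between 30 and 100 CPM by Illumina (IL18 and CXCL1) had Nanopore counts, as had 99.3% of all genes in that range and 99.1% of those that overlap no other gene. So had the 3 between 10 and 30 CPM (IL1A, CXCL2 and CXCL8), against 95.3% and 93.7%. Of the 3 between 3 and 10 CPM, 1 (CCL2) had a Nanopore count and IL1B and LIF had none, against 77.6% of all genes there and 68.7% of those that overlap no other gene. IL1RN, between 1 and 3 CPM, and IL6, under 1 CPM, had none, where 55.5% and 17.6% of all genes did, and 38.5% and 8.09% of those without overlap.

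Scaling bears on these ratios unequally. Division of the Illumina counts by canonical length moved the median ratio of all tested genes from −0.42 to 0.49, and division by union exonic length moved it to 0.40. The log2 ratio of CXCL2 became 2.31 and 1.85 under the 2 divisions, with exact binomial adjusted p-values of 8.87e-20 and 6.77e-14, so it stayed called higher by Nanopore, but under 4-fold in the second. That of CXCL8 became 1.16 and 1.02, with adjusted p-values of 0.0123 and 0.0287 by the same exact test. With canonical length 33.2% of all genes were called higher by Nanopore and 11.2% higher by Illumina, and 16.3% and 3.4% with 4-fold. With union length these shares were 32.4%, 12.8%, 15.5% and 4.84%. Under both, 2 members (CXCL2 and CXCL8) were called higher by Nanopore and 0 higher by Illumina. IL1A kept its direction at 0.85 and 0.09, and IL18, CXCL1 and CCL2 each changed sign under 1 of the divisions.

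**Figure D4:**
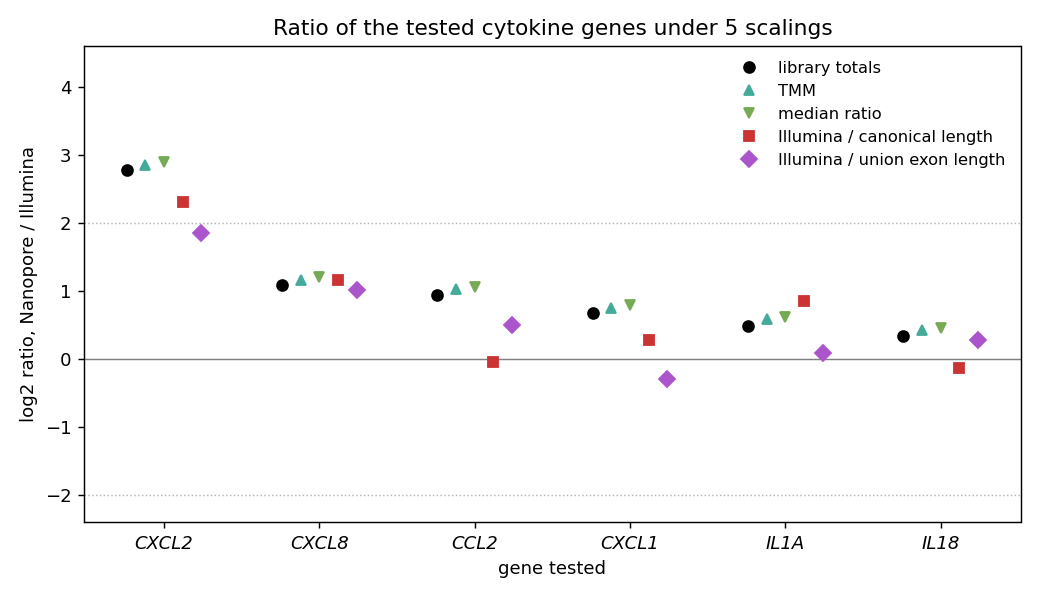
Log2 ratio of Nanopore to Illumina for the 6 tested cytokine genes under 5 scalings; dotted lines mark 4-fold. CXCL2 lies between 1.85 and 2.89 and CXCL8 between 1.02 and 1.20, while CCL2, CXCL1 and IL18 have values on both sides of 0.

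Other genes of these pathways were taken from 8 lists, with 104 genes that are no members. Of these, 64 passed the filter, 9 were called higher by Nanopore and 17 higher by Illumina, beside the 20.2% and 27.2% of all tested genes, and their median log2 ratio was −0.45. Counts and medians over tested genes describe the genes that passed, since among rarer genes the filter on the mean keeps those with Nanopore counts and drops those without. Division by canonical length changed this to 26 higher by Nanopore and 4 higher by Illumina, beside 33.2% and 11.2% of all tested genes. Directions for whole lists thus depended on the scaling. Of the 9 higher by Nanopore, 3 (NFKBIA, CEBPD and ZFP36) overlap no other gene.

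Among 21 other epithelial cytokines, 19 had Illumina counts, 7 were tested, and 1 was called. The call was higher by Nanopore, as for 20.2% of all tested genes, and 27.2% of all were higher by Illumina. The called gene was CXCL16, a membrane-bound chemokine whose gene overlaps 2 others, with 6 Nanopore and 454 Illumina counts and a fold of 6.28 (2.29 to 13.8; exact binomial adjusted p = 0.00302). CXCL16 was at 14.9 CPM by Nanopore and 2.37 CPM by Illumina and so entered the test only through the library in which it was high, which makes its fold and call a description. CSF3, the granulocyte growth factor G-CSF, had 17 and 9624 counts, 42.2 and 50.2 CPM. The 6399 counts per kilobase by Illumina for CSF3 lay above those of CXCL1. CCL20, which attracts Th17 and dendritic cells, had 5 and 2294 counts, 12.4 and 11.96 CPM, and CLCF1, a gp130 cytokine, had 3 and 867. CSF3, CCL20 and CLCF1 did not pass the test.

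Receptors for the members were measured next. Of 12 receptor genes 6 were tested, with a median log2 ratio of −0.29, and 1 was called in each direction. IL6ST, which encodes gp130 and overlaps 3 other genes, had 150 Nanopore and 17102 Illumina counts, 372 CPM (317 to 436) and 89.2 CPM, a fold of 4.17 (3.53 to 4.90; exact binomial adjusted p = 1.11e-43). IL1RAP, the accessory chain that IL-1 receptors share, had 7 and 7581 counts, a fold of 0.439 (0.176 to 0.905; exact binomial adjusted p = 0.0446), and its log2 ratio of −1.14 became 0.40 after division by canonical length. The neutrophil receptors CXCR1 and CXCR2 and the CCL2 receptor CCR2 had 4, 0 and 2 Illumina counts and no Nanopore count.

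Of 13 genes for maturation and binding of IL-1 and IL-18, 9 were tested, with a median log2 ratio of −0.58. Of the 9, 1 was called higher by Nanopore and 5 higher by Illumina, beside 20.2% and 27.2% of all tested genes. With division by canonical length 1 and 3 were called, beside 33.2% and 11.2%, and the median was −0.18. The gene higher by Nanopore was IL18BP, the secreted decoy that binds IL-18 and whose gene overlaps 1 other. IL18BP had 25 and 4205 counts and a fold of 2.83 (1.83 to 4.18; exact binomial adjusted p = 5.86e-05). GSDMD, the pore protein through which IL-1β leaves cells, had 1 and 3971 counts, a fold of 0.120 (0.00303 to 0.668; exact binomial adjusted p = 0.0116), and was not called after division by union length. CAPN2 and CAPNS1, subunits of calpain, the protease that cuts the IL-1α precursor, were the highest of the list per kilobase, and had folds of 0.449 and 0.666. The log2 ratio of CAPN2 was −1.15, and it became −0.04 and 0.51, then called higher by Nanopore, after the 2 divisions by length, while that of CAPNS1 stayed below 0. PYCARD, the inflammasome adaptor ASC, had 0 counts in both libraries, and NLRP3 had 51 Illumina counts.

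In the signalling list from the IL-1 receptor to NF-κB, 24 of 26 genes were tested, with a median log2 ratio of −0.34. Nanopore was the higher library in 4 calls and Illumina in 4, beside 20.2% and 27.2% of all tested genes. This even split depended on the scaling. With division by canonical length 22 genes were tested, with 8 calls for Nanopore, 1 for Illumina and a median of 0.64. The shares of all tested genes were then 33.2% and 11.2%. CEBPD, a transcription factor induced by cytokines, had 101 Nanopore and 2158 Illumina counts, 250 and 11.3 CPM, a fold of 22.3 (18.1 to 27.2; exact binomial adjusted p = 2.83e-93). NFKBIA, the inhibitor that NF-κB itself switches on, had 83 and 20146 counts, a fold of 1.959 (1.56 to 2.43; exact binomial adjusted p = 2.81e-07). TNIP1, a partner of the NF-κB inhibitor A20, was higher by Illumina with a log2 ratio of −1.01, which changed to −0.13 and 0.08 after the divisions by length. REL had 1 and 1849 counts and was not called.

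Of 9 genes of IL-6 family signalling, 6 were tested, with a median log2 ratio of −1.17. Of the 6, 5 were called higher by Illumina and 0 higher by Nanopore, beside 27.2% and 20.2% of all tested genes. STAT3, the main transcription factor of the pathway, had 13 and 21458 counts, a log2 ratio of −1.76 (exact binomial adjusted p = 2.27e-07). PIAS3, an inhibitor of STAT3, had a ratio of −1.39, and the phosphatase gene PTPN11 one of −1.12. After division by canonical length 0 of the 6 were higher by Illumina and 2, PTPN11 among them, higher by Nanopore. The shares of all tested genes were then 11.2% and 33.2%. The ratio of STAT3 became −0.12 and that of PTPN11 0.83.

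The 11 genes of proteins that bind AU-rich or stem-loop elements of such mRNAs were all tested. Nanopore was the higher library in 2 calls and Illumina in 2, beside 20.2% and 27.2% of all tested genes. The median log2 ratio was −0.37. Division by canonical length changed the list to 10 calls with Nanopore higher and 0 with Illumina higher. The shares of all tested genes were then 33.2% and 11.2%, and the median of the list was 1.05. ZFP36, which encodes tristetraprolin, had 72 and 6460 counts, 179 and 33.7 CPM, a fold of 5.30 (4.14 to 6.68; exact binomial adjusted p = 4.60e-27). ZC3H12A, the RNase Regnase-1 that cleaves IL6 mRNA, had 18 and 3881 counts, a fold of 2.20 (1.31 to 3.49; exact binomial adjusted p = 0.0106). HNRNPD had a log2 ratio of −1.07, which changed to −0.09 and 0.30 after the divisions. YBX1, the most abundant of the list at 962 CPM by Nanopore and 988 by Illumina, had a ratio of −0.04, which became 0.90, then called higher by Nanopore, after division by canonical length.

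**Figure D5:**
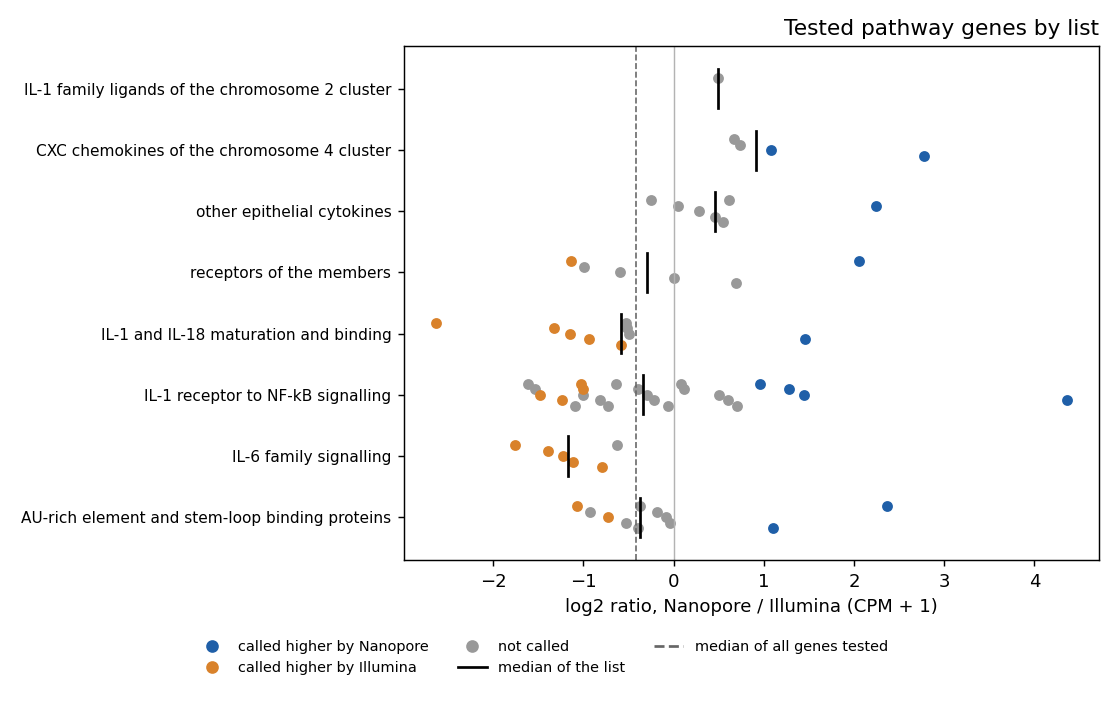
Log2 ratio of Nanopore to Illumina of each tested gene in the 8 lists, members included, coloured by call, with the median of each list (black bar) and of all tested genes (dashed line, −0.42). The points farthest right are CEBPD at 4.36 and CXCL2 at 2.77, and the point farthest left is GSDMD at −2.64.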

How the data were processed

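RNA of the same cells was measured in 2 libraries, each a group of 1 by its title. Per Ensembl gene, the authors deposited counts that are whole numbers and not normalized. The submitters' processing notes name minimap2 2.11-r797, HISAT2 2.1.0, featureCounts and hg38, without roles. The annotation release and the treatment of strand and of reads that fit several genes are not given in the sources used here. Per the file headers, the Nanopore column has a suffix that no label explains. If it marks a correction of the long reads with the short ones, the libraries are not independent, and every fold, interval and p-value here assumes that they are. Depth was 403235 counts by Nanopore and 191741714 by Illumina.

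Names, positions, lengths and overlaps came from GENCODE release 44 on hg38, which held 58207 of the 58735 identifiers. CPM are counts per 1000000 of the library total. The exact binomial p-value is double the smaller tail. With 1 library per platform no spread can be estimated, so the quasi-likelihood test of edgeR was not fitted. Fold intervals are exact (Clopper-Pearson) and CPM intervals Wilson, both at 95% and for counting error only, and amplified reads can repeat a molecule. Canonical transcripts are those GENCODE marks so. Overlap means a shared base of gene bodies on either strand. TMM factors came from edgeR 4.0.16 in R 4.3.3, alignments to alternate contigs from minimap2 2.31, and the rest from Python 3.11.15 with scipy 1.17.1. The code of the test was run on simulated independent counts with counting error alone. The test assumes just that, so the run cannot show how well it holds for these libraries. Protein comparisons planned for the chemokines were not made here.

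The members, the lists and the tests were chosen with earlier results of these data known. In each list the text names the 2 other genes highest by Illumina counts per kilobase and the 2 tested ones with the largest log2 ratio in either direction. It also names cluster genes with a Nanopore count and genes that overlap a member with at least 3 counts. IL36A, IL36B, IL36RN, IL1F10, CXCL6, PF4V1, PPBP, CXCL5, CXCR1, CXCR2, CCR2, PYCARD, NLRP3 and SDHD were named after their values were seen.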

Additional observations from a re-analysis of the deposited data

How the results depend on the processing

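No paired analysis was possible because each platform has 1 library. Of 65 values of the tested members' log2 ratios under other scalings, filters, pseudocounts and restrictions, 62 kept their direction and their side of the threshold. The 3 that changed sign were IL18 (−0.13) and CCL2 (−0.04) with Illumina counts divided by canonical length and CXCL1 (−0.30) with division by union exonic length, and none of the 3 was called. The count of members 4-fold higher by Nanopore was 1, and 0 with union length. Of the pathway genes, 9 were higher by Nanopore, and 26 under either division by length or 3 among genes without overlap. Higher by Illumina were 17, and 4 with canonical length, 3 with union length or 8 without overlap. Of all tested genes 20.2% and 27.2% were higher by Nanopore and by Illumina. These shares were 33.2% and 11.2% with canonical length and 32.4% and 12.8% with union length. Restriction to genes without overlap drops genes from the counts. It left 3049 genes, 254 higher by Nanopore and 950 higher by Illumina. At 4-fold 4 pathway genes were higher by Nanopore, with 7 by union length and 2 without overlap. There was 1 higher by Illumina, with 0 by union length and 0 at a pseudocount of 5 CPM. Of all tested genes 12.9% and 7.31% were called at 4-fold. Of 10 ranks by Illumina counts per kilobase, 6 held with union length and 5 with no division. The loose promoter pattern matched 5 members, and the fixed letters GGAATTTCC matched 3. TMM and median-ratio scaling moved the median ratio of all tested genes from −0.42 to −0.32 and −0.29. Nanopore depth limits the rest: genes under 7.44 CPM could be missed, and so could some above it. Of genes between 10 and 30 CPM by Illumina, 95.3% had a Nanopore count. A ratio from 7 counts (CCL2) spans 0.816 to 4.196.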
